A study of Mus musculus with 8 samples.

Results

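The genes described here drive and mark cell division: 34 cell cycle and DNA replication genes, fixed by symbol. Of these, 15 act in mitosis or mark dividing cells, 10 act in DNA replication and nucleotide supply, 6 are cyclins and a kinase of the G1 phase, and 3 are inhibitors of cyclin-dependent kinases. A probe set of the Affymetrix mouse array named to 1 symbol alone stood for each gene, and where a gene had several, the one with the highest mean over all 8 arrays was taken. Such a probe set was found for 33 of the 34 genes, of 18193 genes in the whole series. Ccnb1 had none in the annotation used and has no value here. For 25 of the 33, of 12176 genes in the series, the probe set lay above a filter that left out the dimmest 40% of the array.

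The arrays measured messenger RNA of the aorta of 4 month-old mice. Mutants, labelled SRF-flex2neo -SM22CreERT2ki/+, carried floxed Srf, the gene of serum response factor, and a Cre recombinase that tamoxifen activates, knocked into an allele of the smooth muscle gene SM22 (Tagln). Controls were SRF-flex2neo littermates without that Cre allele. Both genotypes received 1 mg of tamoxifen intraperitoneally for 3 days and were killed 8 days later, so tamoxifen and the floxed gene were shared by both groups, while the SM22 knock-in allele was in the mutants alone. Each genotype had 4 arrays, and the sample titles divide them into 2 sets with 2 controls (1 and 2, then 3 and 4) and 2 mutants (numbered likewise) in each. What a set was, and whether each array was a separate mouse, is not given in the labels, so p-values measure the spread between these arrays. Values are the deposited log2 values, in which a difference of 1 is 2-fold. Levels were compared within a probe set only, and lists of values give controls 1 to 4 and then mutants 1 to 4.

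A dividing cell passes from G1 through DNA synthesis to mitosis. D cyclins with Cdk4, and E cyclins after them, release the E2F factors, which switch on replication genes. Mitotic genes follow, many through CHR and CCAAT elements in their promoters. Smooth muscle cells of the adult aorta are mostly quiescent, and CIP/KIP inhibitors such as Cdkn1a (p21), Cdkn1b (p27) and Cdkn1c (p57) hold cyclin-dependent kinases in check. SRF binds the CArG box of muscle, cytoskeleton and immediate early genes.

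RefSeq promoter windows of 300 bases (250 before and 50 after the annotated start, GRCm38.p6) were found for 27 of the 34 genes and searched on both strands for CHR (TTTGAA), the CCAAT box (CCAAT), E2F sites (TTTGGCGC or TTCCCGCC) and the CArG box. The 3 windows that follow, 1 of a mitotic gene and 2 of replication genes, show examples of each kind of match. All lie on the minus strand and read 5′ to 3′ in the direction of the gene, with matches in capitals. Top2a (chr11:99024140-99024439) shows CHR and CCAAT matches, Mcm6 (chr1:128359656-128359955) E2F and CCAAT matches, and Tyms (chr5:30073576-30073875) the CArG box match.
Top2a: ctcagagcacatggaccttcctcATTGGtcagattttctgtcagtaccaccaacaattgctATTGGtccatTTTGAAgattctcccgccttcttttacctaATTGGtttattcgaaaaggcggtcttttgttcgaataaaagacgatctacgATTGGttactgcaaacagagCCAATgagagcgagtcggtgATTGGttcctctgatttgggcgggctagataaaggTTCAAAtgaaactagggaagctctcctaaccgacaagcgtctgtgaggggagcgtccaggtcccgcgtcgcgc
Mcm6: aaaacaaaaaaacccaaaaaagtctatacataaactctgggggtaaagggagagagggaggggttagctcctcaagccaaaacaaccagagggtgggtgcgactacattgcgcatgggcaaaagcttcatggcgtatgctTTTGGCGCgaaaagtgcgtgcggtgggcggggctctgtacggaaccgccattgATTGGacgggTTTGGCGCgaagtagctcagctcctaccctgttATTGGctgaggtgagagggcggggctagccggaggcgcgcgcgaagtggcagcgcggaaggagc
Tyms: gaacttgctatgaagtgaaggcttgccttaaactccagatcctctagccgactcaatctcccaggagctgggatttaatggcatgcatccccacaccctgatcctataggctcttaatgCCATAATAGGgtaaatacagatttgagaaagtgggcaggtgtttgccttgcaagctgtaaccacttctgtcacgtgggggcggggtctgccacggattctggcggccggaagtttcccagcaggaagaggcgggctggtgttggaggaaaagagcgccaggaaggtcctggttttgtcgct

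Shares are of genes with a window, and a gene with several windows counted if any of them matched. CHR was found for 9 of 13 mitotic genes (69.2%) and 1 of 9 replication genes (11.1%), against 20.2% of all 27025 genes. The CCAAT box was found for 92.3% of mitotic and 88.9% of replication genes, against 41.1% of all genes. An E2F match was found for Mcm3, Mcm5, Mcm6 and Rrm1 (44.4% of the replication genes) and for 0 mitotic genes, against 3.07% of all. Tyms was the 1 member with a CArG box match (1.81% of all genes had one), and the 1 replication gene of 9 without a CCAAT box. These are matches of letters in a window, given as a description.

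On the arrays as a whole, medians were 3.72 to 3.98 and mutant 2 stood apart: it correlated with the other arrays at 0.961 to 0.974, and 825 probe sets were over 2 higher on it than on every other array. Smooth muscle markers such as Acta2 (15.33 to 15.40) and Myh11 (14.45 to 14.74) were bright on every array. All 8 differed downwards in mutants, from -0.015 (Acta2) to -0.78 (Des), with a median of -0.26. Tagln, among the 8, differed by -0.29. Its locus holds the Cre allele in mutants alone, so the knock-in and the Srf deletion cannot be told apart there. Markers of other cells of the vessel wall differed upwards: 8 of 8 for endothelium (median 1.02), fibroblasts (1.02) and macrophages (1.14). In whole tissue, fewer cells of a type and less RNA per cell cannot be told apart. Srf differed by -0.20 (SE 0.19, limma adjusted p = 0.686), which was -0.485 in set 1 and 0.085 in set 2. Mutant 2 was the lowest array, at 9.54. Mutants 1, 3 and 4 (10.21, 10.32 and 10.34) lay within the range of the controls. The place of the Srf probes relative to the deleted part is not given, so their reading does not check the deletion.

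No cell cycle or replication gene passed the test between mutant and control aorta. In limma, with genotype and set as terms, 0 of 27029 probe sets passed an adjusted p of 0.05 (0% called). Differences between the genotypes were small: of the 25 genes above the filter, 15 were lower and 10 higher in mutants, where 55.1% of all genes were lower. Their median difference was -0.05, with a range of -0.57 (Top2a) to 0.57 (Ccnd1), beside a median of -0.02 over all genes. The median size of the difference, sign aside, was 0.14 for the members and 0.13 for all genes. At an unadjusted p of 0.05 limma called 1 of the 25, Top2a, against 10.4% of all genes. Top2a lay above the filter only through its controls (mean 3.35), since the mean of its mutants (2.78) was under the lowest mean kept, 2.97, so the call is given as a description. Top2a was also the 1 gene with all 4 mutants below all 4 controls (1.77% of all genes), and no member had all 4 mutants above all 4 controls (2.06% of all genes). In this fit the share of members called was below the background, but it rests on 1 call and changed when single arrays were left out. Without mutant 4 the unadjusted count was 4 members (Mcm4, Mki67, Rrm2 and Top2a, all lower) against 10.3% of all genes in that fit, and without mutant 2 it was 3 (Ccne2, Mcm7 and Top2a) against 9.64%. Without control 3, 11 probe sets passed the adjusted threshold, none of them the brightest of a member.

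**Figure D1:**
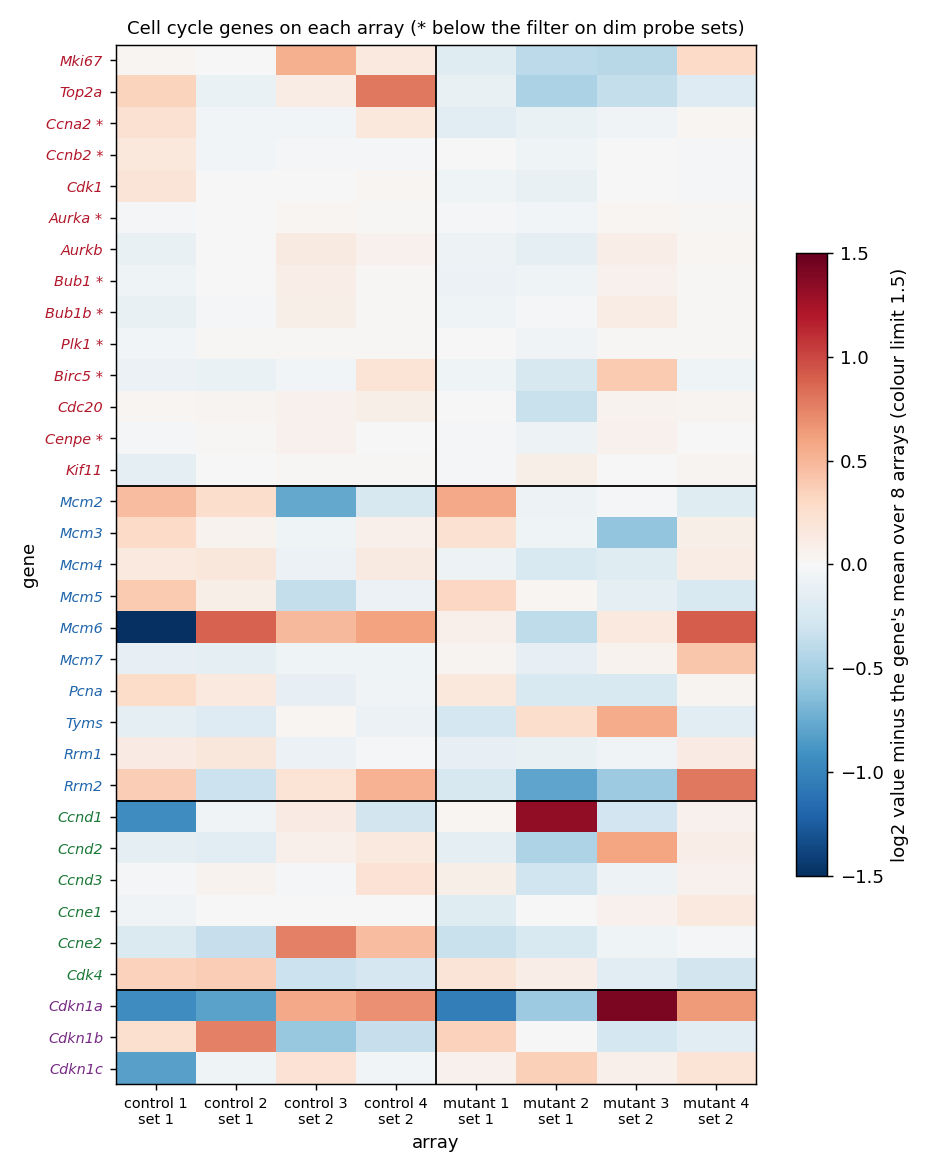
Log2 value of each of the 33 genes on each array, minus the gene's mean over the 8 arrays, for controls (left of the line) and mutants (right); genes are ordered and coloured by role (mitosis, replication, G1, inhibitors), and a star marks the 8 genes below the filter. Mcm6 on control 1 lies beyond the colour limit of 1.5, Ccnd1 is high on mutant 2, and Cdkn1a is high on all 4 arrays of set 2.

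**Figure D2:**
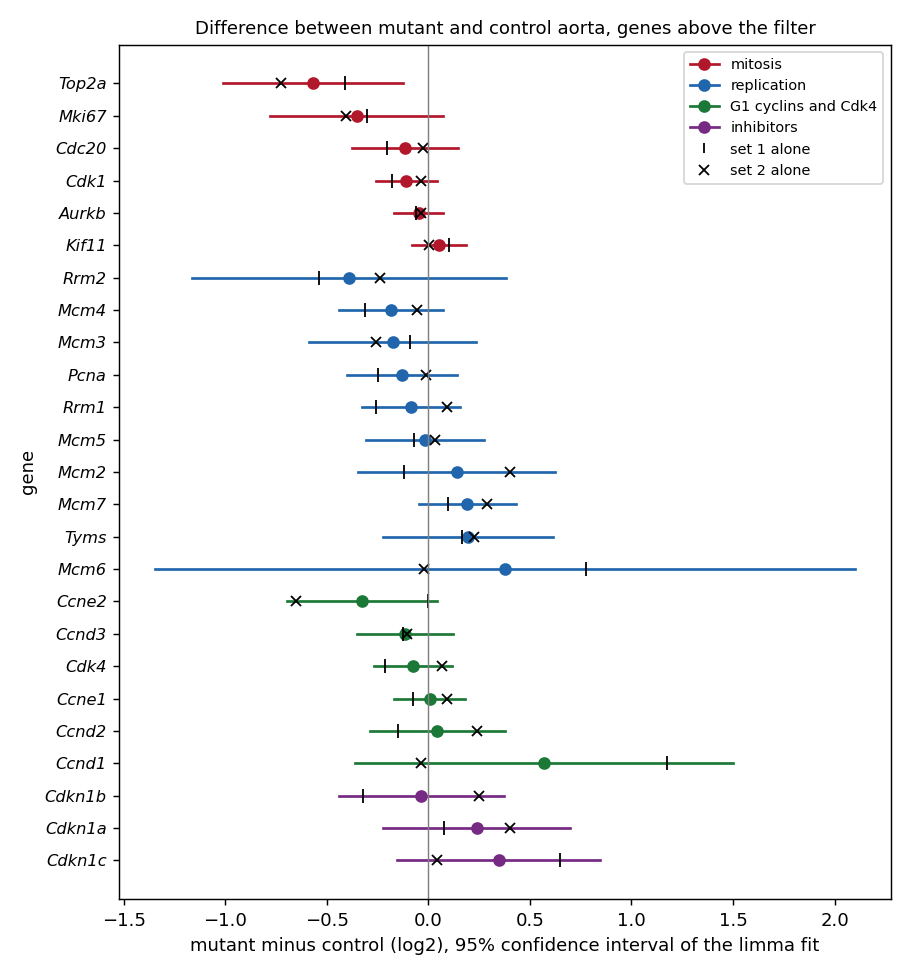
Mutant minus control difference (log2) of the 25 genes above the filter, with the 95% confidence interval of the limma fit as a line, and the difference within set 1 (vertical tick) and within set 2 (cross). The interval of Top2a alone leaves out 0 before adjustment, and those of Mcm6 and Ccnd1 are the widest.

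Most mitotic transcripts were at or near the floor of the array in both genotypes, and none of the 6 above the filter passed between them. All 8 genes below the filter were mitotic: the cyclins Ccna2 and Ccnb2, the kinases Aurka, Plk1 and Bub1 with its relative Bub1b, the survivin gene Birc5 and the centromere motor Cenpe. Their values lay between 2.02 and 3.21 on every array. Their differences were not tested in the main fit. With the filter dropped, none of them had an unadjusted limma p under 0.05. Of the 6 others, 5 were lower and 1 higher in mutants, where 55.1% of all genes were lower. The median difference of the 6 was -0.11 (-0.19 in set 1 and -0.04 in set 2). Top2a, among the 5 lower genes, lay above the filter only through its controls. Aurkb, Cdk1, Kif11 and the mutant values of Top2a lay in or close to the range of the 8 genes below the filter. This leaves Mki67 and Cdc20 as the mitotic members clearly above it. For Cdc20 this depended on the probe set, since the dimmest of its probe sets read 2.16 to 2.32.

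Top2a encodes topoisomerase II alpha, which untangles sister chromosomes. It was at 3.40, 2.96, 3.17 and 3.86 in controls and at 2.95, 2.59, 2.71 and 2.87 in mutants. The mutants lay below the controls, with mutant 1 and control 2 almost level. The difference was -0.57 (SE 0.19, 95% confidence interval -1.01 to -0.12), with an unadjusted limma p of 0.0193 and an adjusted p of 0.469. It was -0.41 in set 1 and -0.73 in set 2. All 4 mutant values lay under the lowest mean that the filter kept, so the size and the p compare the controls with a group near the floor of the array. A dimmer probe set of the gene, also above the filter, was at 3.15, 3.33, 2.85 and 2.86 in controls and 3.06, 2.96, 3.00 and 3.00 in mutants. There the groups overlapped and the difference was -0.04 (SE 0.09). The unadjusted call on Top2a was lost without control 1 (difference -0.51) or without mutant 3 (-0.50).

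Mki67, the gene of the proliferation marker Ki-67, was at 5.67, 5.64, 6.17 and 5.79 in controls and at 5.46, 5.25, 5.22 and 5.93 in mutants. Mutants 1 to 3 lay below every control and mutant 4 lay within their range. The means were 5.82 ± 0.24 and 5.47 ± 0.33 (SD, n = 4 each), a difference of -0.35 (SE 0.18, limma adjusted p = 0.568).

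Cdk1, the kinase that drives entry into mitosis, was at 3.27, 3.07, 3.08 and 3.11 in controls and 3.01, 2.97, 3.07 and 3.05 in mutants, a difference of -0.11 (SE 0.06, limma adjusted p = 0.59). Control 1 was the highest array, and mutant 3 equalled control 2. Cdc20, an activator of the anaphase-promoting complex, was at 6.26, 6.27, 6.29 and 6.31 in controls and 6.23, 5.89, 6.28 and 6.27 in mutants. Mutant 2 alone stood low, and the difference was -0.12 (SE 0.11). Its second probe set was at 3.87, 4.31, 4.24 and 4.10 in controls and 3.85, 3.33, 3.78 and 4.14 in mutants, a difference of -0.36 (SE 0.17) with mutant 2 again the lowest. Aurkb, a kinase of chromosome segregation, was at 2.92, 3.03, 3.16 and 3.09 in controls and 2.95, 2.88, 3.12 and 3.06 in mutants, a difference of -0.05 (SE 0.05). Kif11, a motor of the spindle, was the 1 mitotic member that differed upwards, by 0.05 (SE 0.06).

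The mean over the 6 mitotic members above the filter was 4.10, 4.03, 4.18 and 4.23 in controls and 3.96, 3.81, 3.93 and 4.07 in mutants. Top2a, which differed most among the 6, lay above the filter only through its controls, so this mean is a description. Mutant 2 was the lowest array, and mutant 4 lay above control 2. Markers of blood and marrow cells, which can divide, were at the floor of the array in part: Cd3e was 1.78 to 1.83, Rag1 2.43 to 2.59, Elane 2.09 to 2.16 and Mpo 2.11 to 2.16. Others were not: the erythroid gene Alas2 read 3.16 to 4.05 in controls and 4.80, 5.24, 4.04 and 4.2 in mutants, the B cell gene Cd79a read 4.06 on mutant 2 and 2.23 to 2.43 elsewhere, and the granulocyte gene S100a8 read 3.28 to 3.88. The erythroid list averaged 2.67 to 2.93 in controls and 2.94 to 3.15 in mutants, with 2 of 4 genes above the filter, and the granulocyte list 2.56 to 2.63 and 2.57 to 2.68, with 2 of 6. Of 9 lymphocyte and thymocyte markers with a probe set, 3 were above the filter, and the mean of the list was 2.57 to 2.71 in controls and 2.62 to 2.81 in mutants. Macrophage markers averaged 5.19 to 6.05 in controls and 6.14 to 7.39 in mutants. Their part in the mitotic values was not tested. Over the 8 arrays, the genes whose values followed the mean of the 14 mitotic members most closely were Usp10 (Pearson's r 0.993), Filip1 (0.979), Ralgapb (0.976), Dido1 (0.976) and Ipo13 (0.975), the top 5 of 12151 genes searched. Of those 14 members 8 lie below the filter, and the r values over 8 arrays are a description.

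All 10 replication genes lay above the filter. Of them, 6 were lower and 4 higher in mutants, with a median of -0.05, and 0 had an unadjusted limma p under 0.05. The MCM genes encode the ring-shaped helicase that opens DNA at origins, as 6 subunits that work in 1 complex. In mutants Mcm3, Mcm4 and Mcm5 were lower and Mcm2, Mcm6 and Mcm7 higher, none of them passing.

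Mcm4 was at 8.16, 8.19, 7.93 and 8.15 in controls and 7.94, 7.79, 7.84 and 8.13 in mutants, a difference of -0.18 (SE 0.11, limma adjusted p = 0.591). Mcm7 was at 8.42, 8.39, 8.48 and 8.48 in controls and 8.58, 8.42, 8.59 and 8.95 in mutants, a difference of 0.19 (SE 0.10, limma adjusted p = 0.572). In both genes the groups overlapped, through control 3 in Mcm4 and mutant 2 in Mcm7. The 3 dimmer probe sets of Mcm7 differed by 0.02, -0.09 and 0.27, and the one that differed downwards was at 6.77, 6.54, 6.60 and 6.48 in controls and 6.32, 6.31, 6.67 and 6.74 in mutants.

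Mcm3 was at 6.59, 6.36, 6.24 and 6.38 in controls and 6.53, 6.24, 5.71 and 6.39 in mutants, with mutant 3 lowest and a difference of -0.18 (SE 0.17). Another of its probe sets was at 4.95, 4.77, 4.77 and 4.74 in controls and 5.14, 4.71, 4.75 and 4.80 in mutants, a difference of 0.04 (SE 0.12). The sign for Mcm3 thus depended on the probe set. Mcm2 was at 5.16, 4.96, 3.93 and 4.45 in controls and 5.26, 4.62, 4.67 and 4.51 in mutants, a difference of 0.14 (SE 0.20), which was -0.12 in set 1 and 0.40 in set 2. Mcm5 differed by -0.02 (SE 0.12), and its dimmer probe sets, with means of 2.52 and 2.22, lay below the filter.

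Mcm6, whose promoter window is printed above, varied more between arrays than any other member. It was at 6.37, 10, 9.60 and 9.72 in controls and 9.19, 8.73, 9.26 and 10.02 in mutants, so that control 1 lay 2.36 below the next lowest array. A second probe set read 4.53 on control 1 and 7.18 to 9.10 on the other 7 arrays. The other, below the filter, lay at 2.51 to 2.69. The difference between the genotypes was 0.38 (SE 0.73, limma adjusted p = 0.85), and without control 1 it was -0.43 (adjusted p = 0.905). Over the whole table, 9 probe sets were over 2 lower on control 1 than on every other array, among them both of these and those of Cox7a1, Cox8b, Kcnq5, Prune2 and Sncg. Rab3gap1 and R3hdm1, near Mcm6 on chromosome 1 and chosen after their values were seen, were not low there. Rab3gap1 read 9.01 on control 1 and 8.46 to 8.79 elsewhere, and R3hdm1 read 9.98 against 9.70 to 10.16. Some probe sets of other genes of the region were lowest on control 1, by smaller gaps. Those of Thsd7b read 3.57 against 3.69 to 4.46 and 2.82 against 2.84 to 2.98. One of Cd55 read 3.54 against 3.93 to 5.95, and Cxcr4 read 2.76 against 2.79 to 8.18. The remaining probe sets of Thsd7b (2.94 against 2.85 to 3.06) and Cd55 (3.85 against 3.75 to 6.03, and 2.58 against 2.52 to 4.62) were not lowest there. The cause of the low reading was not tested.

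**Figure D3:**
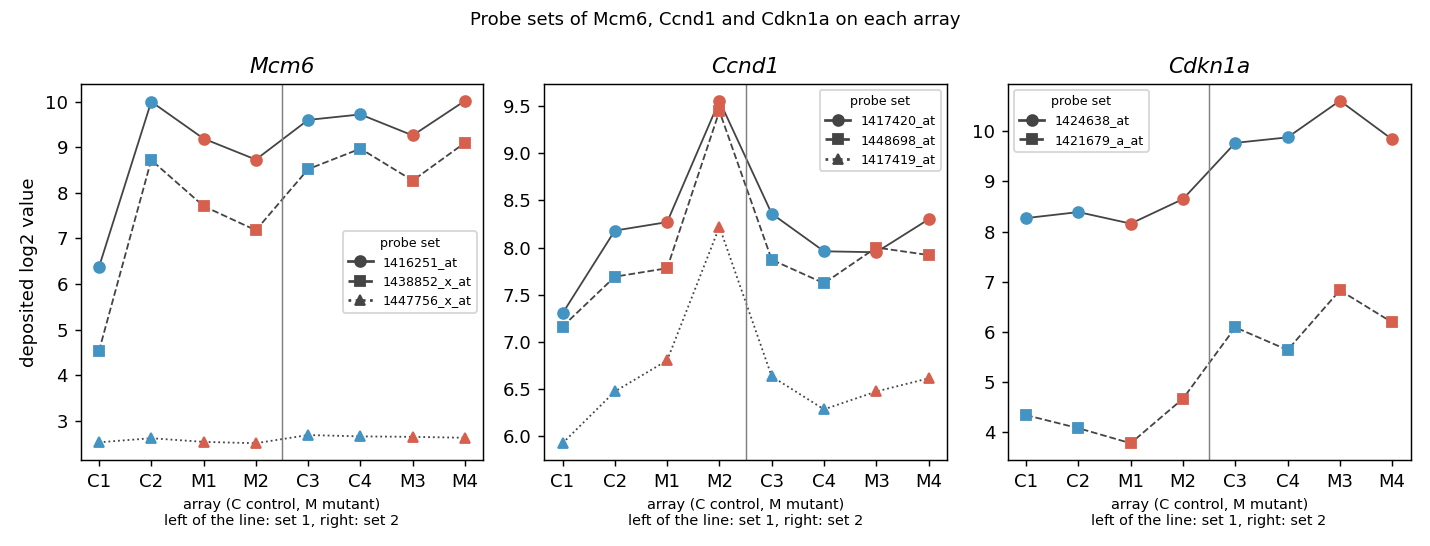
Deposited log2 values of each probe set of Mcm6, Ccnd1 and Cdkn1a on the 8 arrays (C control, M mutant), with set 1 left of the grey line and set 2 right of it. The 2 brighter Mcm6 probe sets drop together on control 1, the 3 Ccnd1 probe sets peak on mutant 2 (9.56, 9.45 and 8.22), and both Cdkn1a probe sets are higher on every array of set 2.

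Pcna, the sliding clamp of DNA polymerases, was at 11.13, 11, 10.73 and 10.80 in controls and 11.01, 10.62, 10.62 and 10.89 in mutants, a difference of -0.13 (SE 0.11, limma adjusted p = 0.671). Rrm2, the regulated subunit of ribonucleotide reductase, was at 5.79, 5.10, 5.62 and 5.94 in controls and 5.18, 4.63, 4.87 and 6.21 in mutants. Mutant 4 was the highest of all arrays and mutants 2 and 3 the lowest, and the difference was -0.39 (SE 0.33, limma adjusted p = 0.668). Its second probe set differed by -0.40 (SE 0.25). Rrm1, the large subunit of the same enzyme, differed by -0.09 (SE 0.10). Tyms, thymidylate synthase, was at 3.29, 3.23, 3.46 and 3.34 in controls and 3.16, 3.69, 3.98 and 3.27 in mutants, with mutants 2 and 3 above every control and mutants 1 and 4 within or below them. Its difference, 0.20 (SE 0.18, limma adjusted p = 0.679), had the same sign in both sets. The dimmer probe sets of Tyms, all below the filter, differed by 0.005, 0.0075 and -0.0075, so the upward value rests on 1 probe set.

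No G1 gene passed between the genotypes, and differences between members of a family were not tested. The 6 genes split into 3 lower and 3 higher in mutants, with a median of -0.03. Ccnd1, cyclin D1, was at 7.30, 8.18, 8.36 and 7.96 in controls and 8.27, 9.56, 7.95 and 8.30 in mutants. Mutant 2 stood above all other arrays and control 1 below them, and the rest overlapped. The difference was 0.57 (SE 0.39, 95% confidence interval -0.36 to 1.5, limma adjusted p = 0.624), 1.18 in set 1 and -0.04 in set 2. The difference between the sets in this effect had an unadjusted limma p of 0.128 (adjusted p = 0.824). The other 2 probe sets of Ccnd1 both differed by 0.70 (SE 0.39), and mutant 2 was highest in each. Without mutant 2 the difference was 0.19, and without control 1 it was 0.27.

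Ccnd2, cyclin D2, was at 12.23, 12.19, 12.44 and 12.51 in controls and 12.22, 11.90, 12.96 and 12.47 in mutants, a difference of 0.05 (SE 0.14). Its other 6 probe sets differed by -0.42 to -0.01. The one furthest down was at 7.53, 7.68, 6.68 and 6.68 in controls and 7.41, 6.65, 6.69 and 6.12 in mutants. The small upward value of Ccnd2 thus held in its brightest probe set only. Ccnd3, cyclin D3, was at 10.14, 10.21, 10.14 and 10.37 in controls and 10.24, 9.86, 10.08 and 10.22 in mutants, a difference of -0.12 (SE 0.10). Its second probe set was at 5.14, 5.71, 6.81 and 7.15 in controls and 6.21, 5.43, 6.41 and 7.58 in mutants, a difference of 0.21 (SE 0.32). Cdk4, the kinase partner of the D cyclins, differed by -0.08 (SE 0.08) between the genotypes.

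The E cyclins activate Cdk2 at the start of DNA synthesis. Ccne1 was at 3.78, 3.84, 3.84 and 3.84 in controls and 3.65, 3.82, 3.89 and 3.97 in mutants, a difference of 0.01 (SE 0.07). Its second probe set was at 3.34, 3.39, 3.41 and 3.39 in controls and 3.36, 3.34, 3.40 and 3.32 in mutants, a difference of -0.03 (SE 0.05). Neither probe set separated the groups. Ccne2 was at 4.40, 4.28, 5.37 and 5.08 in controls and 4.29, 4.39, 4.55 and 4.60 in mutants, a difference of -0.33 (SE 0.16, limma adjusted p = 0.558). In set 2 both mutants were below both controls (difference -0.65), and in set 1 the difference was 0. Ccne2 was the 1 member of 25 with an unadjusted p under 0.05 for the genotype by set interaction, against 5.17% of all genes. Limma gave it an unadjusted p of 0.0198 and an adjusted p of 0.824. No member passed the adjusted threshold for the interaction, which 14 of 27029 probe sets did (0.0518%). That number ran from 0 to 2746 when single arrays were left out (2746 without mutant 1, 62 without mutant 2, 0 without controls 1 or 2 or mutants 3 or 4, 3 without control 3 and 4 without control 4).

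The CIP/KIP inhibitors did not pass between the genotypes. Cdkn1a was at 8.27, 8.39, 9.77 and 9.88 in controls and 8.16, 8.65, 10.61 and 9.84 in mutants, a difference of 0.24 (SE 0.19, limma adjusted p = 0.666). Cdkn1b was at 11.57, 12.08, 10.76 and 10.98 in controls and 11.68, 11.33, 11.07 and 11.17 in mutants, a difference of -0.04 (SE 0.17). A dimmer probe set of Cdkn1b was at 4.05, 3.81, 3.56 and 3.08 in controls and 5.07, 4.17, 3.58 and 3.53 in mutants, a difference of 0.46 (SE 0.22), so its 2 probe sets differed in sign. Cdkn1c was at 6.95, 7.71, 7.99 and 7.73 in controls and 7.83, 8.13, 7.84 and 7.97 in mutants, a difference of 0.35 (SE 0.21, limma adjusted p = 0.598). Control 1 was the lowest array of Cdkn1c. Set 1 alone gave 0.65 and set 2 alone 0.05.

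Where the cell cycle genes differed beyond the spread between arrays, it was between the 2 sets. In the same limma fit, 4 of 25 members passed for set at an adjusted p of 0.05, against 16.6% of all genes, so the share was close to the background. Cdkn1a and Ccne2 were higher in set 2 (8.81% of all genes were) and Cdk4 and Cdkn1b were lower (7.79% of all genes). The median size of the set difference was 0.19 for the members and 0.22 for all genes. It was larger than the genotype difference in 14 of 25 members, and in 63.9% of all genes.

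Cdkn1a had the largest set difference among the members. It averaged 8.37 ± 0.21 in set 1 and 10.02 ± 0.39 in set 2 (SD, n = 4 each, 2 of each genotype), and every array of set 2 lay above every array of set 1. The difference was 1.66 (SE 0.19, 95% confidence interval 1.20 to 2.12, limma adjusted p = 0.00228). Its second probe set read 4.34, 4.08, 3.78 and 4.67 in set 1 and 6.09, 5.64, 6.83 and 6.19 in set 2, a difference of 1.97 (SE 0.27, limma adjusted p = 0.00395). Cdk4 was at 9.26, 9.28, 8.59 and 8.66 in controls and 9.10, 9.01, 8.74 and 8.64 in mutants, and was lower in set 2 by -0.51 (SE 0.08, limma adjusted p = 0.00651). Its other 2 probe sets were lower in set 2 as well, by -0.49 and -0.53, and both passed. In the brightest probe set of Cdk4, every array of set 2 lay below every array of set 1.

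Cdkn1b was lower in set 2 by -0.67 (SE 0.17, limma adjusted p = 0.0344), and its dimmer probe set by -0.84 (adjusted p = 0.0394). Ccne2 was higher in set 2 by 0.56 (SE 0.16, limma adjusted p = 0.0446), with controls 3 and 4 the highest arrays. With 1 array left out at a time, Ccne2 passed only without mutant 2, and Cdkn1b only without mutant 2 or control 2. Cdk4 and Cdkn1a passed each time, and the count of members ran from 2 to 7 (7 without mutant 2). In other members the probe sets disagreed on the set. The brightest probe set of Rrm1 differed by -0.03 and the second by -0.79 (limma adjusted p = 0.0137), and those of Ccnd3 differed by 0.09 and 1.37 (adjusted p = 0.0243).

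**Figure D4:**
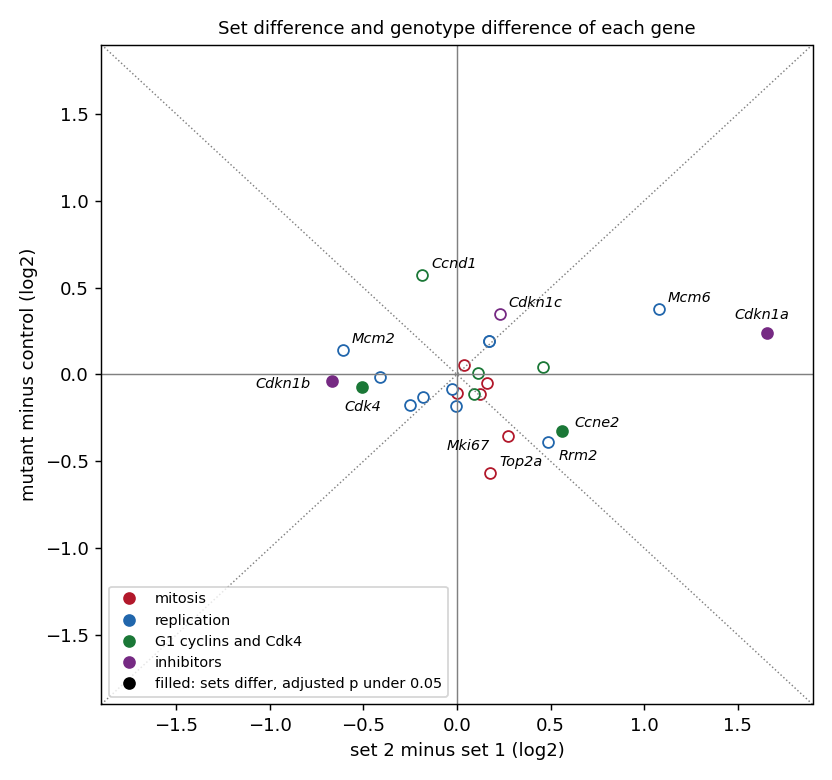
Set 2 minus set 1 (x axis, log2) against mutant minus control (y axis, log2) for each of the 25 genes above the filter, coloured by role; filled points passed an adjusted p of 0.05 for the set, and dotted lines mark equal size. Cdkn1a lies furthest right, at 1.66, and Top2a, at -0.57, and Ccnd1, at 0.57, lie furthest from the horizontal axis.

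The other genes of the pathway showed the same scale of differences. Of 93 further cell cycle genes, 90 had a probe set and 62 lay above the filter, of which 32 were lower and 30 higher in mutants, with a median of -0.01. None passed limma's adjusted threshold, and 2 of the 62 had an unadjusted p under 0.05, against 10.4% of all genes. Of 18 other mitotic genes, 15 were lower and 3 higher, where 55.1% of all genes were lower, with a median of -0.12. Pbk and Espl1 among them lay above the filter only through their controls. Of 21 other replication genes, 7 were lower and 14 higher, where 55.1% of all genes were lower, with a median of 0.04. Cdc45, Uhrf1 and Hells among them lay above the filter only through their mutants. Other G1 genes split 7 to 7, with E2f4 above the filter only through its mutants. Of 9 other inhibitors and growth arrest genes 3 were lower and 6 higher (median 0.10). These counts are a description.

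Pbk, a kinase of mitotic cells, was at 3.54, 3.43, 3.34 and 4.32 in controls and 2.74, 2.36, 3.33 and 3.27 in mutants. All mutants lay below the controls, mutant 3 only just, by -0.73 on average (SE 0.22). Pbk too lay above the filter only through its controls, with a mean of 3.66 against 2.93 in mutants. Limma gave an unadjusted p of 0.0128 and an adjusted p of 0.457. Tpx2, a spindle assembly factor, differed by -0.39, and Cks2, a subunit of cyclin-dependent kinases, by -0.23. Cdca8, a partner of Aurkb chosen after its values were seen, was the other gene of the 62 with all mutants below all controls, and differed by -0.22. Among replication genes, the helicase loader Cdc6 differed by 0.25, the clamp loader subunit Rfc5 by 0.34 and the dUTPase gene Dut by -0.21. None of these passed.

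Ccng2, a cyclin linked to growth arrest, was at 7.95, 8.17, 9.60 and 9.32 in controls and 8.98, 9.11, 9.74 and 9.54 in mutants, a difference of 0.58 (SE 0.18). Limma gave an unadjusted p of 0.0148 and an adjusted p of 0.463. Each mutant of set 1 was above both controls of set 1, and the sets themselves differed by 1.00 (adjusted p = 0.0104). Myc, a transcription factor of growth, was at 3.62, 3.28, 3.63 and 3.60 in controls and 4.68, 5.31, 3.61 and 3.60 in mutants. It was higher in both mutants of set 1 (difference 1.55) and at the level of controls in set 2 (-0.01). The interaction had an unadjusted limma p of 0.00271 and an adjusted p of 0.536. Cdkn2c, an inhibitor of Cdk4 and Cdk6, was at 7.58, 7.21, 7.19 and 7.05 in controls and 8.26, 8.99, 6.63 and 6.93 in mutants, a difference of 1.23 in set 1 and -0.34 in set 2 (limma interaction adjusted p = 0.696). In all, 9 of the 62 had an unadjusted limma interaction p under 0.05, where 5.17% of all genes did, and 0 passed. Markers of fat and nerve were high on mutant 2: the fat list averaged 11.5 there against 7.82 to 9.86 elsewhere, and the nerve list 8.65 against 3.28 to 3.68. Endothelial and macrophage markers had median differences of 1.59 and 1.83 in set 1 and 0.49 and 0.49 in set 2, and the leukocyte gene Ptprc was at 6.99 and 7.10 in the mutants of set 1 and at 3.65 to 4.51 elsewhere. The part of these cells in the set 1 values of Ccnd1, Myc and Cdkn2c was not tested.

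Other genes of the pathway also differed between the sets, in both directions, and are named here because they passed. In set 2 Trp53inp1 was higher by 1.07 (limma adjusted p = 0.0246), Ccng1 by 0.33 (adjusted p = 0.00888) and Ccng2 as above, while Gadd45a was lower by -1.25 (adjusted p = 0.00113). Mdm2 (0.07), Sesn2 (-0.08) and Btg2 (0.26) did not pass for the set. Of the 62 genes, 6 were higher in set 2 (these 3 with Fen1, Dut and Cdc25a) and 2 lower (Gadd45a and Pttg1), so the share that passed was not above the background.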

How the data were processed

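The authors deposited log2 values per probe set, with 0.90 the lowest and 15.82 the highest. The log2 scale was read from that range. The submitters' processing notes name GCOS. Neither normalization nor background correction is given in the sources used here. RNA was taken with a kit for fibrous tissue and 2 ug was labelled, per the labels' protocols. Of 45037 probe sets, 34945 had 1 gene symbol in the platform annotation, 932 had several and 9160 none. The 27029 probe sets with the highest means were kept (lowest mean 2.97), among them 52 of the 81 probe sets of the members.

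Values were tested as deposited with limma 3.58.1 in R 4.3.3. Its model had a genotype term and a title set term, with the prior variance following the mean. P-values are two-sided and were adjusted by Benjamini-Hochberg across all kept probe sets, and SE is the moderated error. The sets entered as a term because the titles name them, and replicate numbers pair nothing within a set. The number of arrays limits the precision.

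The members and the lists of other genes were chosen with earlier results of these data known, so no p is given over a list. Genes named with values are all members, up to 3 genes a further list with the smallest p, and genes said to be chosen after their values were seen (Cdca8, and those named for the set difference or the interaction). Alternatives changed the filter, the scaling between arrays (quantile or median), the set term, the variance model, the array weights and the choice of probe set, or left out an array or a set. The procedure was tested on simulated data with known changes in mutants. At an adjusted p of 0.05 it recovered 23.9% of log2 changes of 0.5, 60.2% of changes of 1 and 84.8% of changes of 2. Most changes of the size seen in the members would thus be missed. Figures were drawn with Python 3.11.15.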

Additional observations from a re-analysis of the deposited data

Results flagged for a closer look

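Dixon's test at the 95% level was run on 66 groups of 4 arrays (33 genes, each genotype). In 8 of the groups, 1 array stood further from the rest than the test allows. Chance alone gives about 1 group in 20 where the values of a group are a single sample. Here each group pooled arrays of 2 sets, and all groups shared the same 8 arrays. The count therefore cannot be set against that rate. Control 1 stood apart in 5 of the 8 groups. Mcm6 was 6.37 on control 1 and at least 9.60 on the other controls, a fall seen in its 2 brighter probe sets. Among genes above the filter, Kif11 was low on control 1 (3.06, nearest 3.19), as was Ccne1 (3.78, nearest 3.84). Among genes below it, Ccnb2 was high on control 1 (2.41, nearest 2.24) and Plk1 low (2.03, nearest 2.08). Mcm4 was low on control 3 (7.93, nearest 8.15), Birc5 high on control 4 (3.02, nearest 2.77) and Cdc20 low on mutant 2 (5.89, nearest 6.23).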

How the results depend on the processing

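With the dim filter dropped, 2 members passed for set (Ccne2, adjusted p = 0.0695, and Cdkn1b, adjusted p = 0.057, did not) and 36 probe sets passed for the interaction. With 60% of probe sets left out, 0 members (Top2a was not kept) and 1 wider pathway gene had an unadjusted limma p under 0.05, and 1 probe set passed for the interaction. Quantile normalization gave 2 such members (Top2a and Ccne2) and 4 wider genes. Median centring gave 2 and 4, and a member median of -0.12, which was also that of set 1 alone, and ended the set call on Cdkn1b (adjusted p = 0.0772). With each gene taken as the mean of its probe sets Ccne2 lost its set call (adjusted p = 0.0536). The fit with no replicate block (no set term) gave 1 wider gene and still 1 member, Top2a (-0.57, adjusted p = 0.935). Array weights let 10 probe sets pass between the genotypes, none the brightest of a member, with 3 members (Ccne2, Mcm7 and Top2a) and 6 wider genes at an unadjusted p under 0.05 and 9 members passing for set. Leaving out 1 array gave 0 to 11 probe sets passing between the genotypes (11 without control 3), 0 to 4 members at an unadjusted p under 0.05 (0 without control 1 or mutant 3, 4 without mutant 4, 3 without mutant 2), 2 to 5 wider genes, a member median of -0.117 to -0.028, 2 to 7 members passing for set (7 without mutant 2) and 0 to 2746 probe sets passing for the interaction (2746 without mutant 1, 62 without mutant 2). The causes were not tested.

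Genes near 0 changed sign. Ccne1 (0.01) was -0.0497 after quantile normalization, -0.065 after median centring, -0.0199 with array weights, -0.01 over the mean of its probe sets and -0.075 in set 1 alone. Ccnd2 (0.05) was -0.03 after median centring, -0.0889 over its probe sets and -0.15 in set 1 alone, and Kif11 was -0.02 after median centring. Mcm5 (-0.02) was 0.0278 with array weights and 0.035 in set 2 alone. Cdkn1b (-0.04) was 0.0609 with array weights, 0.21 over its probe sets and 0.25 in set 2 alone, and Ccnd3 was 0.045 over its probe sets. Mcm2 was -0.12 in set 1 alone. In set 2 alone Mcm6 was -0.02, Rrm1 0.09, Ccnd1 -0.035 and Cdk4 0.065. Over the left-out arrays the ranges were -0.428 to 1.024 for Mcm6, -0.016 to 0.32 for Mcm2, -0.082 to 0.053 for Mcm5, -0.092 to 0.148 for Ccnd2, -0.025 to 0.058 for Ccne1 and -0.136 to 0.124 for Cdkn1b. The set differences of Cdk4 and Cdkn1a passed in every setting run with a set term.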
